A study of Mus spretus with 19 samples.

Results

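Liver RNA of mice from phosphogypsum stacks (PS) was compared with liver RNA of mice from the lower course of the Domingo Rubio stream (DR1), both of which the submitters class as polluted. Phosphogypsum is the calcium sulfate waste that remains when fertilizer is made from phosphate rock. The comparison used the 4 arrays whose titles name PS and the 4 whose titles name DR1, 8 of the 19 arrays in the series. The other arrays hold pools from the medium course (DR4) and upper course (DR6) of the same stream and from an unpolluted lagoon, Santa Olalla (SOL), and they enter only as a description and as a source of the shared variance estimate. All mice were male Mus spretus, the Algerian mouse, with no transgene or experimental treatment in the labels and no age given. The labels describe RNA of 9 animals pooled per site, so each site was represented by 1 pool and its 4 arrays are technical repeats. Every test below therefore sets 2 pools against technical variation between repeat arrays and is silent on variation among mice. Each site lay on 1 slide with 1 scan of its own, so site and slide cannot be told apart.

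Each value is a single-colour (Cy3) intensity of a 60-base probe, given as log2 of the processed signal minus the 75th percentile of that array, so that 0 is the level of a fairly bright probe. The lowest signal well above background was −4.37 to −4.21 on the PS arrays and −4.64 to −3.90 on the DR1 arrays, and values under it were not told apart from background. The term level is used for this scale throughout, and a difference is the PS mean minus the DR1 mean. A gene was called when its difference reached 2-fold and its adjusted p was under 0.05 (limma moderated test on all 5 sites, Benjamini-Hochberg over 16345 genes). The 75th percentile of the raw signal was 159 to 182 on the PS arrays and 186 to 285 on the DR1 arrays, and the share of probes well above background was 55.2% ± 0.813 (SD, n = 4) at PS and 55.2% ± 2.12 (SD, n = 4) at DR1. Pearson correlations across 16003 genes, which are not independent replicates, were 0.995 to 0.997 among the PS arrays, 0.981 to 0.993 among the DR1 arrays and 0.971 to 0.979 between the sites. The liver identity of both pools was plain: albumin (Alb1) was saturated at both sites and the level of Apoa1, the main protein of high-density lipoprotein, was 8.07 ± 0.06 at PS and 8.01 ± 0.10 at DR1 (SD, n = 4). The Y-linked genes Ddx3y and Eif2s3y were measured on all 8 arrays, as the male label requires. Probe base composition moved with the difference: the median difference was −0.10 for probes with 35 to 40% G and C and 0.14 for those with 50 to 55%. With levels adjusted for probe base composition, an alternative added after this relation was seen, 140 of the 151 called genes named here kept their call.

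Of the 16345 genes tested, 1039 (6.36%) were called, 431 (2.64%) higher at PS and 608 (3.72%) lower at PS. The larger fitted changes were mostly falls at PS: by the fitted difference, 97 called genes were at least 4-fold lower there and 30 at least 4-fold higher. These counts include genes at background at the lower site, whose bound can be under 4-fold. Gcg, for example, had a fitted fold of 7.48 and a bound of 1.997. Higher calls made up 41.5% of all calls, and 51.6% when arrays were scaled to their medians instead. The 4 arrays of each site were tight enough that 7907 genes (48.4%) had an adjusted p under 0.05 in limma with no fold limit, and the array ranges of 7210 genes (44.1%) did not overlap, so an adjusted p alone separates few genes from the rest. The median difference of all genes was −0.01. Of the 608 genes lower at PS, PS had the lowest mean of the 5 pools in 366 and DR1 the highest in 286. Of the 431 higher at PS, PS was the highest pool in 273 and DR1 the lowest in 274. Of the calls, 95 rises and 146 falls had the lower site not well above background on any array, so only a lower bound of their fold can be given. Many calls depended on the background correction. Under normexp, which adds an offset of 50, 58 genes were called higher and 189 lower, and 75 of the 151 called genes named here lost their call. The level at the higher site had a median of −1.03 in those 75 and 3.79 in the 76 that kept it. The ranges overlapped, −4.23 to 8.59 in the 75 and −0.78 to 8.11 in the 76, so some bright genes lost their call too.

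**Figure D1:**
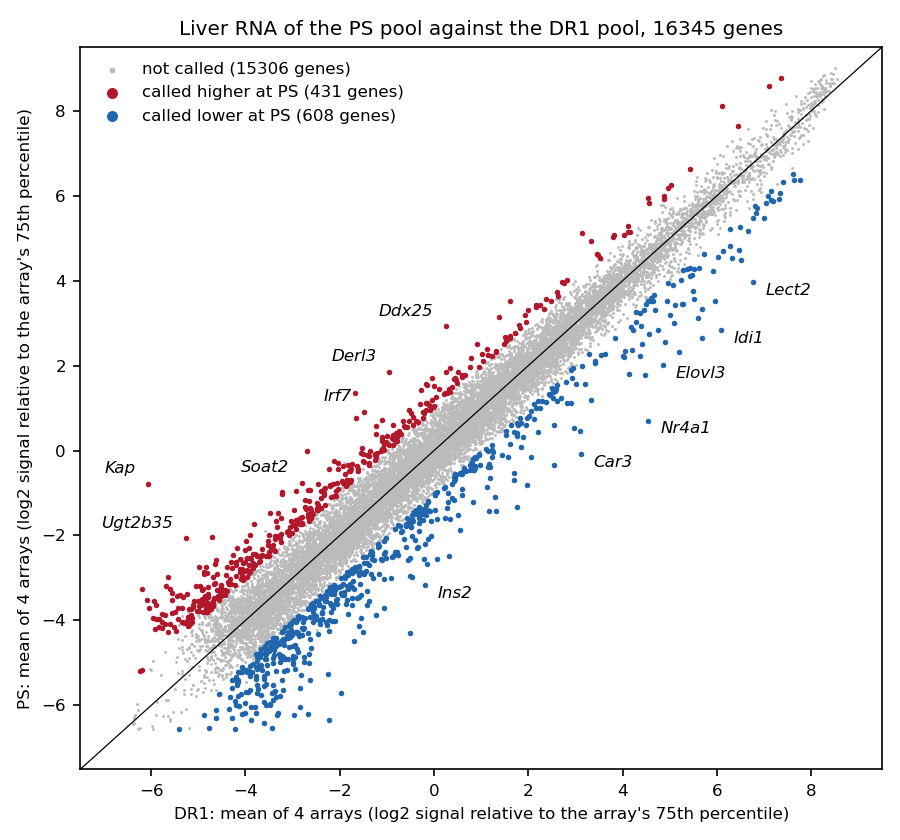
Mean level of each of 16345 genes at PS (vertical axis) against DR1 (horizontal axis), both as log2 signal relative to the array's 75th percentile; the diagonal is equality, red points are the 431 genes called higher at PS and blue points the 608 called lower. Nr4a1, Idi1, Car3 and Elovl3 lie far below the diagonal at mid to high levels, whereas many of the red points lie at low levels on the left, with Kap the farthest from the line.

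Cholesterol synthesis had the lowest median difference of the gene lists, −1.80. In it, 14 of 21 measured enzymes were lower at PS (66.7% of the list, against 3.72% of all genes) and none was higher. The liver makes cholesterol from acetyl-CoA through mevalonate, isoprenoid diphosphates, squalene and a series of sterols, and the genes of the pathway are switched on together by the transcription factor SREBP-2 when sterols in the cell are low. PS had the lowest level of the 5 pools in 19 of the 21, against 2883 of all 16345 genes and 366 of the 608 called lower at PS. For each list, 3.72% of all genes lower at PS and 2.64% higher are the background shares.

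At the entry of the pathway, Hmgcs1, which makes HMG-CoA, had levels of 4.42, 4.36, 4.67 and 4.64 on the PS arrays and 6.41, 6.06, 6.38 and 6.46 on the DR1 arrays, a difference of −1.80 (SE 0.105, 3.49-fold lower at PS, limma adjusted p 8.12e-10). Its highest PS array lay well below its lowest DR1 array. In the mevalonate and isoprenoid steps, Pmvk fell 5.06-fold, Idi1, the isopentenyl diphosphate isomerase, fell 9.5-fold and Fdps fell 4.28-fold. Idi1 was the largest fall of the list: its levels were 2.87, 2.79, 2.88 and 2.79 at PS and 6.12, 5.82, 6.20 and 6.19 at DR1 (difference −3.25, SE 0.0745, limma adjusted p 4.36e-14). The pools not compared here had Idi1 levels of 6.34 (SOL), 5.76 (DR4) and 5.85 (DR6), so that PS stood apart from all 4 other pools and DR1 did not. Fdps lacked a value on 1 DR1 array, and its other probe gave −1.58 in place of −2.10.

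In the squalene and sterol steps, Fdft1 (−1.43), Sqle (−2.15), Lss (−1.40), Cyp51 (−2.71), Sc4mol (−2.03), Nsdhl (−2.21), Ebp (−1.51), Sc5d (−1.82) and Dhcr7 (−2.35) were all called lower at PS. Cyp51, the lanosterol demethylase, had levels of 1.83, 1.85, 1.83 and 1.57 at PS and 4.52, 4.39, 4.61 and 4.39 at DR1, 6.54-fold lower at PS (SE 0.0867 on the log2 scale, limma adjusted p 6.85e-12). Dhcr7, the last reductase before cholesterol, had 3.36, 3.33, 3.31 and 3.35 at PS and 5.72, 5.74, 5.69 and 5.59 at DR1, 5.09-fold lower (SE 0.0487, limma adjusted p 2.71e-15). Neither gene's array ranges came near each other. The 7 members that were not called ranged from −0.82 in Mvk to 0.15 in Ggps1, whose product supplies geranylgeranyl groups rather than sterols.

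Among genes that carry or control cholesterol, 2 of 18 were lower at PS and 2 were higher (list median −0.22). Insig1, the sterol-sensitive retention protein of SREBP, had levels of −0.41, −0.46, −0.44 and −0.26 at PS and 1.03, 1.19, 1.23 and 1.12 at DR1, 2.89-fold lower at PS (limma adjusted p 2.22e-11). Npc1l1, the sterol importer blocked by ezetimibe, fell 4.06-fold, a call lost under normexp. Soat2, which esterifies cholesterol for storage and secretion, went the other way: its levels were −0.80, −0.72, −0.73 and −0.78 at PS and −2.85, −2.81, −2.83 and −2.71 at DR1, 4.13-fold higher at PS (SE 0.0906, limma adjusted p 3.21e-11). That Soat2 contrast rested on a low DR1, since SOL (−0.68) and DR6 (−0.83) had levels near that of PS and DR4 (−2.85) one near that of DR1. Srebf2, which encodes SREBP-2, differed by −0.18 and was not called. Nr0b2, the bile acid induced repressor SHP, was 2.38-fold higher at PS (limma adjusted p 0.0169), but without the lowest DR1 array, at −0.31 against 0.53 to 0.78 on the other arrays, its difference of 1.01 no longer had an adjusted p under 0.05.

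**Figure D2:**
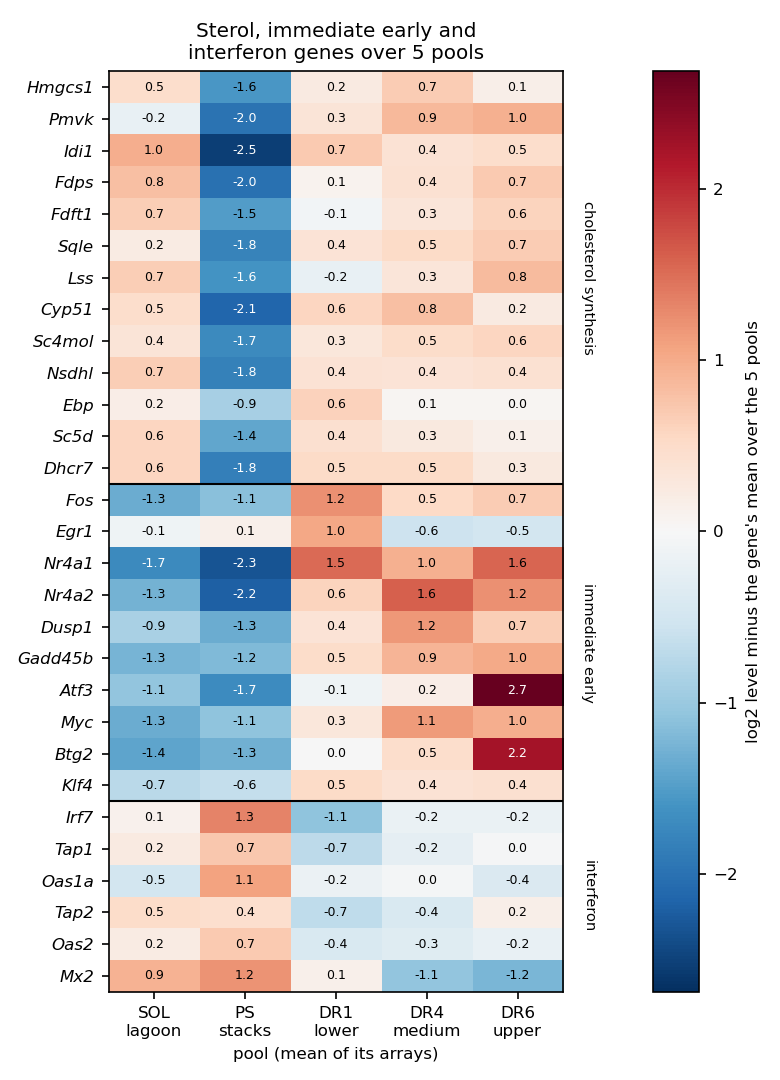
Mean level of 29 genes in each of the 5 pools, as log2 level minus the gene's own mean over the 5 pools (colour and printed value), for enzymes of cholesterol synthesis, immediate early genes and interferon response genes. The PS column is the lowest in every enzyme row, the immediate early rows are low at SOL and PS and higher at the stream sites except for Egr1, and PS is the highest pool in 5 of the 6 interferon rows, Tap2 being the exception.

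Fatty acid synthesis differed less. Scd1, the desaturase that makes oleate, was 3.44-fold lower at PS (levels 1.08 to 1.18 at PS, 2.82 to 3.05 at DR1), and Fasn, fatty acid synthase, was 2.01-fold lower, just past the limit. The Fasn call was lost without PS array 1 (−0.99), PS array 2 (−0.98), DR1 array 3 (−0.99) or DR1 array 4 (−0.93). Scd1 and Fasn were the only 2 of 23 members called, beside a list median of −0.33. Elovl6 (−0.46), Thrsp (−0.43) and Srebf1 (0.26) stayed under 2-fold. Of 38 genes of fatty acid oxidation and other targets of the receptor PPAR-alpha, 2 were called higher and none lower, too few to set them apart from the 2.64% of all genes called higher, and the median was 0.35. The mitochondrial thioesterase Acot2 had levels of 4.92, 4.92, 4.88 and 5.03 at PS and 3.35, 3.44, 3.34 and 3.19 at DR1, 3.05-fold higher at PS (SE 0.0616, limma adjusted p 5.4e-12), and the lipid droplet gene Cidec was 2.34-fold higher, a call lost under normexp and under the adjustment for base composition. Acot2 levels were 5.31 at SOL, 3.03 at DR4 and 5.26 at DR6, so DR1 shared its low level with DR4 alone. The fatty acid hydroxylases Cyp4a10 and Cyp4a14 differed by 0.67 and 0.78, and the receptor Ppara itself by −0.13, none of them called.

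Immediate early genes, which are transcribed within minutes of a stimulus, were lower at PS in 9 of 26 (34.6%) and higher in none, with a median of −0.84. Nr4a1, an inducible orphan nuclear receptor, was the largest fall among genes measured on all 8 arrays: its levels were 0.71, 0.70, 0.66 and 0.73 at PS and 4.51, 4.64, 4.54 and 4.48 at DR1, 14.3-fold lower at PS (difference −3.84, SE 0.0618, limma adjusted p 1.85e-16). Its relative Nr4a2 fell 6.97-fold. Fos, a subunit of the transcription factor AP-1, had levels of −2.49, −2.56, −2.47 and −2.68 at PS and −0.29, −0.58, 0.03 and −0.03 at DR1, 5.05-fold lower at PS (SE 0.117, limma adjusted p 1.36e-10). The phosphatase Dusp1 (3.26-fold), Gadd45b (3.21-fold), Atf3 (2.98-fold), Myc (2.63-fold), Btg2 (2.42-fold) and Klf4 (2.22-fold) fell too. No PS array reached the lowest DR1 array in any of these 9, but ranges overlapped in only 56 of all 1039 called genes. Sgk, a glucocorticoid-inducible kinase outside the list, was 8.19-fold lower at PS, with values on only 2 DR1 arrays (5.46 and 5.91, against 2.59 to 2.75 at PS).

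The immediate early fall was uneven. Egr1 (−0.90, and −1.07 with a call without DR1 array 2), Ier2 (−0.87) and Junb (−0.60) did not reach the limit, and Jun, the partner of Fos, differed by −0.07 with overlapping arrays. Under normexp the calls of Atf3 and Klf4 were lost. Other probes of 2 of the called genes gave less: the second Gadd45b probe gave −0.78, and the 3 Myc probes gave −1.40, −1.51 and −0.55. For most of these genes PS resembled the lagoon: Nr4a1 was 1.31 at SOL against 3.99 at DR4 and 4.59 at DR6, and Fos was −2.76 at SOL against −0.90 at DR4 and −0.75 at DR6.

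Genes linked to p53 and growth arrest followed, with 7 of 28 (25%) lower at PS and none higher (median −0.53). Sesn1, a sestrin, had levels of 2.86, 2.87, 2.85 and 2.74 at PS and 4.65, 4.88, 4.60 and 4.84 at DR1, 3.76-fold lower at PS (SE 0.0762, limma adjusted p 8.21e-12). Trp53inp1 fell 3.51-fold, Gadd45g 2.76-fold, the kinase Plk3 2.61-fold and Gadd45a 2.32-fold, and Gadd45b and Btg2 belong to this list as well as to the preceding one. The Gadd45a call was lost under normexp. Other genes linked to p53 did not pass the fold limit: the cell cycle inhibitor Cdkn1a differed by −0.85, Mdm2 by −0.30 and Ccng1 by −0.16, and Trp53 itself by 0.00 with overlapping arrays.

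Ligands of the epidermal growth factor receptor were among the largest falls. The receptor drives hepatocyte growth and is more abundant in male mouse liver. Btc, betacellulin, had levels of −1.27, −1.32, −1.40 and −1.36 at PS and 1.51, 1.68, 1.72 and 2.13 at DR1, 8.55-fold lower at PS (SE 0.102, limma adjusted p 9.24e-13). Areg, amphiregulin, was not well above background on any PS array and was at least 2.57-fold lower there (limma adjusted p 8.36e-12). Egfr itself was 2.14-fold lower on the probe used, and its 6 probes ranged from −0.65 to −1.40. The Egfr call was lost under the adjustment for base composition and under normexp with quantile scaling, and the Areg call under normexp. These 3 were the only members of 14 called, and the list median was −0.14. Levels of Btc in the other pools were −1.58 at SOL, 3.83 at DR4 and 3.13 at DR6, so PS was close to the lagoon and DR1 lay between it and the other stream sites. Of 6 measured targets of the aryl hydrocarbon receptor, which senses dioxins and polycyclic aromatics, only Tiparp was called, 3.85-fold lower at PS (0.58 to 0.63 at PS, 2.23 to 2.86 at DR1), while all 6 differences were below 0. Cyp1a1 differed by −0.55 with overlapping arrays, Cyp1a2 by −0.80 and the receptor Ahr by −0.79.

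**Figure D3:**
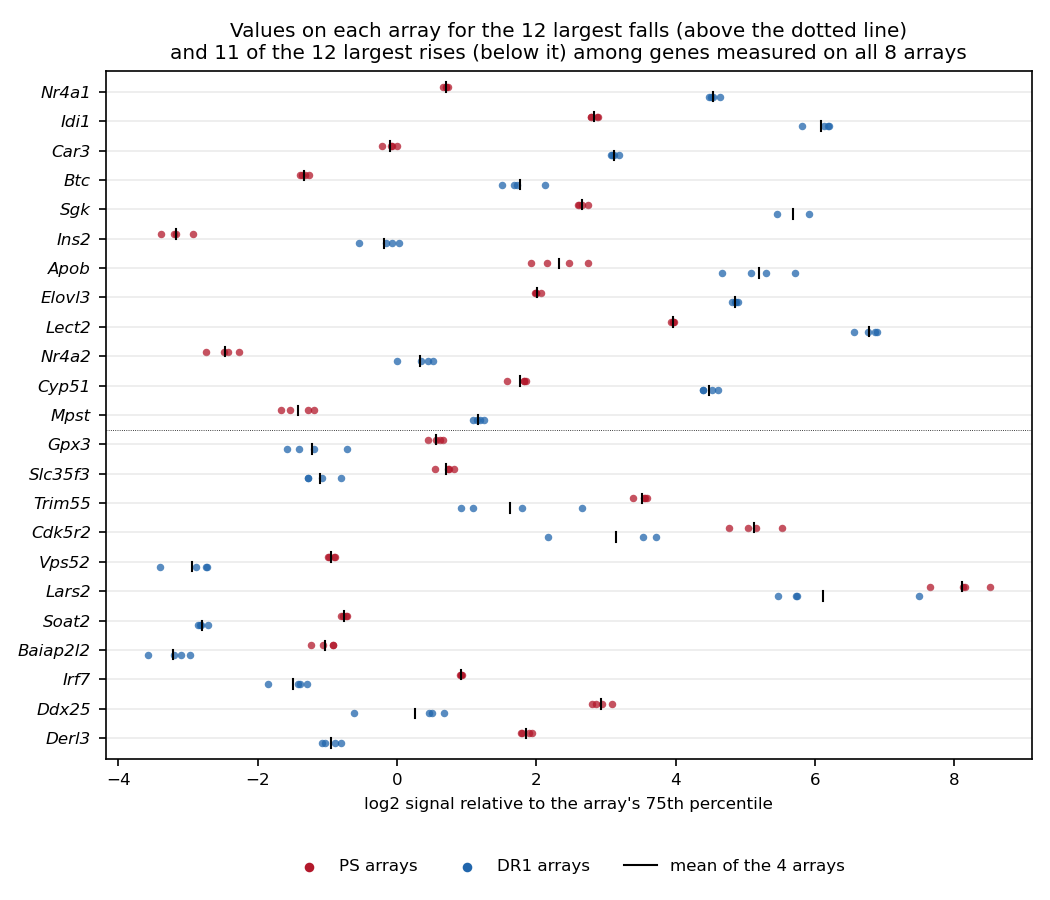
Level on each array (points, log2 signal relative to the array's 75th percentile) and mean of the arrays (black ticks). Shown are the 12 largest falls and 11 of the 12 largest rises at PS. They were taken among named genes well above background on all 8 arrays and not saturated on all 4 arrays of a site. Outlier-flagged spots were left out, so Sgk lacks a value on 2 DR1 arrays and Cdk5r2 on 1. The PS arrays of Nr4a1 sit between 0.66 and 0.73 and its DR1 arrays between 4.48 and 4.64, while the DR1 arrays of Lars2, Trim55, Cdk5r2 and Ddx25 are spread widely.

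Genes of cell division were lower at PS in 19 of 45 (42.2%) and higher in none (median −0.74). Mki67, the proliferation antigen, had levels of −2.03, −1.94, −1.99 and −2.04 at PS and −0.47, −0.61, −0.45 and −0.36 at DR1, 2.88-fold lower at PS (SE 0.0864, limma adjusted p 5.75e-10), and a second probe gave −1.57. The mitotic kinesin Kif20a fell 3.84-fold, cyclin A2 (Ccna2) 3.63-fold, Cdc20 2.83-fold and cyclin B2 (Ccnb2) 2.47-fold. These transcripts were dim: Ccnb1, Rrm2 and Bub1 were not well above background on any PS array and were at least 2.84-fold, 3.72-fold and 1.79-fold lower. The count fell to 1 of 45 under a normexp background correction, which adds an offset that compresses dim probes, and to 9 of the 32 members that were above background on all 8 arrays. DR1 was the highest of the 5 pools in 22 of the 45, against 3328 of all 16345 genes and 286 of the 608 called lower at PS. The replication licensing gene Mcm5 (−0.12) and the G1 cyclin Ccnd1 (−0.21) were not called.

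Transcripts of the pancreas were lower at PS than at DR1 in both its compartments. Among digestive enzymes and other exocrine genes, 15 of 22 (68.2%) were called lower, none higher, and all 22 differences were below 0 (median −1.11). The elastase Ela1 had levels of 2.21, 2.20, 2.27 and 2.26 at PS and 3.93, 3.99, 4.09 and 4.04 at DR1, 3.42-fold lower at PS (SE 0.058, limma adjusted p 8.01e-13), and carboxypeptidase Cpa1 fell 2.84-fold, colipase (Clps) 2.69-fold, trypsin Prss2 2.51-fold and the lipase Cel 2.5-fold. The log2 of the summed signal of the 22 genes ran from 9.64 to 9.71 on the PS arrays and from 10.3 to 10.6 on the DR1 arrays. Neither site was at an extreme among the pools: Ela1 was 4.50 at SOL, 0.59 at DR4 and 5.31 at DR6, and neither PS nor DR1 was the highest or lowest pool for any of the 22. Ctrb1 (−0.74) and Ela2a (−0.36) were not called. In bulk RNA, fewer cells of a type and less RNA per cell cannot be told apart.

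Of 15 islet and neuroendocrine genes, 6 were lower at PS and 1 was higher (median −0.84). Insulin Ins2 had levels of −3.17, −2.93, −3.20 and −3.38 at PS and −0.16, −0.55, −0.07 and 0.03 at DR1, 7.9-fold lower at PS (SE 0.113, limma adjusted p 4.77e-12), and Ins1 followed at 5.85-fold. Glucagon (Gcg), pancreatic polypeptide (Ppy) and somatostatin (Sst) were not well above background on any PS array, with bounds of at least 2-fold, 1.07-fold and 1.73-fold, and Pyy was 3.53-fold lower, its second probe giving −0.98. Chromogranin Chgb, a granule protein of neuroendocrine cells, was instead 3.25-fold higher at PS, with levels of 1.40 to 1.48 at PS, −0.34 to −0.23 at DR1 and −4.34 to −2.73 in the means of the other pools. The hormones and Chgb therefore moved in opposite directions. Under normexp the fall held for 2 genes, Sst and Ppy turned to 0.12 and 0.11, and the list median became 0.12.

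The Reg lectins, small secreted proteins made by acinar cells and by injured or regenerating liver and gut, all fell: 6 of 6 measured members were lower at PS (median −1.63). Pap, the pancreatitis-associated protein, had levels of 2.49, 2.52, 2.28 and 2.20 at PS and 4.23, 4.25, 4.25 and 4.09 at DR1, 3.56-fold lower at PS (SE 0.0896, limma adjusted p 1.09e-10). Reg1 fell 3.21-fold, Reg3a 2.98-fold, Reg3d 2.54-fold and Reg2 2.36-fold, and Reg3g was not well above background on any PS array and at least 4.28-fold lower. The members stood differently among the pools. Reg2, Reg3a, Reg3d and Pap were higher at PS than at SOL and DR4, as in Reg3a with −0.39 at PS, −4.05 at SOL and −3.84 at DR4. Reg1 was higher at SOL (5.23) than at PS (4.23), as was the digestive enzyme Cpa1 (7.14 and 5.16), and Reg3g was low at SOL (−6.18), PS (−6.35) and DR4 (−6.42) alike. The calls of Reg3d and Reg3g were lost under normexp. The exocrine markers moved with the Reg lectins between PS and DR1, and their part in the Reg result was not tested. Reg4 was on the array but did not pass the filter on dim probes.

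**Figure D4:**
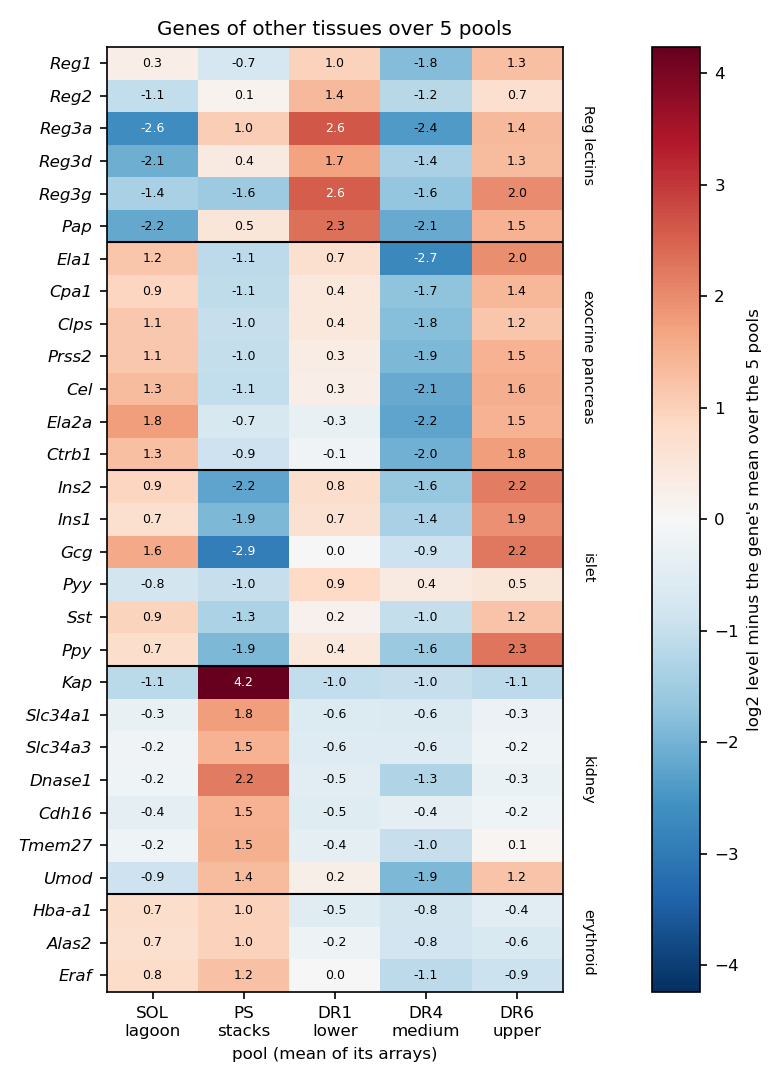
Mean level of 29 genes of other tissues in each of the 5 pools, as log2 level minus the gene's mean over the 5 pools. Digestive enzymes and islet hormones are lower at PS than at DR1 with DR6 high, Reg lectins are highest at DR1 in 5 of 6 rows, and the kidney rows from Kap to Tmem27 are raised at PS alone. Slc34a3, Dnase1, Cdh16 and Tmem27 were added to the plot after their values were seen.

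Other epithelial genes moved in both directions. The largest fitted rise of all genes was Kap, the kidney androgen-regulated protein, with levels of −0.77, −0.86, −0.73 and −0.79 at PS and −6.67, −6.09, −5.70 and −5.79 at DR1. Kap was not well above background at DR1, and it was at least 11.9-fold higher at PS (fitted difference 5.28, SE 0.462, limma adjusted p 1.06e-07), with means from −6.16 to −5.98 in the other pools. The renal phosphate transporter Slc34a1 was at least 1.57-fold higher at PS. Umod, the urinary protein uromodulin, was spread from −5.63 to −2.81 on the DR1 arrays and was not called (difference 1.12), though it was without DR1 array 1 (1.32) or DR1 array 3 (1.52). Some genes of gut and lung epithelium were lower: Agr2, a mucous cell protein, was at least 5.14-fold lower at PS, the surfactant proteins Sftpc and Sftpa1 fell 2.81-fold and 2.14-fold, and Tff3 and Vil1 fell 2.1-fold and 2.04-fold. The Tff3 call was lost without DR1 array 4 (−0.99) and the Vil1 call without PS array 1 (−0.94), and under normexp the calls of Slc34a1, Agr2, Sftpc, Sftpa1, Tff3 and Vil1 were all lost. Over the whole list of 25 kidney, gut and lung genes, 2 were higher at PS, 7 lower and the rest not called (median −0.19), and the log2 summed signal overlapped between sites, 7.12 to 7.22 at PS and 7.03 to 7.28 at DR1.

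Some male-biased liver genes were lower at PS. In mouse liver, pulses of growth hormone hold a set of genes higher in males than in females. In 8 of 20 such genes the level was lower at PS, none was higher, and the median was −0.46. Elovl3, a fatty acid elongase, had levels of 2.0, 2.07, 2.0 and 1.98 at PS and 4.86, 4.85, 4.81 and 4.89 at DR1, 7.17-fold lower at PS (SE 0.0536, limma adjusted p 1.18e-15), and SOL was as low as PS at 1.90. Moxd1 fell 2.74-fold, the oxysterol hydroxylase Cyp7b1 2.66-fold and Cyp4a12 2.19-fold, and Egfr is a member of this list also. Keg1 (−1.09), Omd (−1.04) and Nudt7 (−1.0) were near the limit, and the second Nudt7 probe gave −0.55. With levels adjusted for probe base composition 4 of the 20 were called lower. The Omd call was lost without PS array 2 (−0.97) or DR1 array 4 (−0.79), and the Nudt7 call without PS array 4 (−0.96) or DR1 array 3 (−0.93). Mup5, a major urinary protein, differed by −0.59. Of 24 female-biased genes, Abcd2 alone was called, 2.06-fold higher at PS (lost without DR1 array 1 or DR1 array 2, at 0.98 and 0.93), and Hao3 (−0.46) leaned the other way.

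A few collagens and matrix proteoglycans were lower at PS. Of 37 genes of stellate cells, fibroblasts and matrix, 5 were lower at PS, none higher, and the median was −0.22. Col3a1, a fibrillar collagen, had levels of −0.13, −0.23, −0.23 and −0.04 at PS and 1.33, 1.68, 1.62 and 1.63 at DR1, 3.3-fold lower at PS (SE 0.081, limma adjusted p 6.62e-11). The small proteoglycan lumican (Lum) fell 3.06-fold and Col1a1 2.31-fold, and Col6a3 was at least 2.8-fold lower. Under normexp Col3a1 alone of the 5 kept its call, those of Lum, Col1a1, Col6a3 and Omd being lost. Decorin (Dcn), the most abundant of them, differed by 0.40 the other way and was not called. The log2 summed signal of the list was 7.21 to 7.26 at PS and 7.13 to 7.24 at DR1.

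Interferon response genes were higher at PS in 6 of 40 (15%), against 2.64% of all genes, and lower in none, with a median of 0.35. PS was the highest of the 5 pools in 22 of the 40, against 3083 of all 16345 genes and 273 of the 431 called higher at PS. Irf7, the transcription factor that amplifies type I interferon, had levels of 0.92, 0.93, 0.92 and 0.91 at PS and −1.42, −1.39, −1.29 and −1.85 at DR1, 5.3-fold higher at PS (SE 0.126, limma adjusted p 2.33e-10), and means of −0.29 at SOL, −0.59 at DR4 and −0.58 at DR6 lay between them. The peptide transporter subunits Tap1 and Tap2 rose 2.67-fold and 2.19-fold, the viral RNA sensors Oas1a and Oas2 2.35-fold and 2.16-fold, and Mx2 2.12-fold. The PS arrays lay above the DR1 arrays for all 6, but ranges overlapped in only 56 of all 1039 called genes. Ifit1 (0.36) and Rsad2 (0.28), strongly inducible members, overlapped between sites, and Ifi27 differed by 0.41. The Oas2 call was lost without DR1 array 2 (0.98), and under normexp 2 members of the list were called.

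Immune cell markers moved in mixed directions. Cd8a, a coreceptor of cytotoxic T cells, was 2.04-fold higher on the probe used, with 1 of its 3 probes at 0.22 and the call lost without PS array 2 (0.98) or DR1 array 3 (0.99). Gzma, the granzyme of cytotoxic cells, was 2.37-fold lower, but it was well above background on only 2 of the 4 PS arrays and its difference turned to 0.039 under normexp, where Cd8a lost its call too. In the same list, the T cell receptor subunits Cd3e (−0.59) and Cd3g (0.73) disagreed with each other and were not called. For the 24 T and NK cell genes 2 were higher and 1 was lower, the median was 0.43, and the log2 summed signal was 3.58 to 3.62 at PS and 3.1 to 3.26 at DR1. Of 20 macrophage genes, Cd68 was 2.19-fold higher and Cd163, the haptoglobin-hemoglobin receptor, 5.29-fold lower at PS (−0.82 to −0.50 at PS, 1.40 to 1.88 at DR1), while Emr1 (−0.01) and the Kupffer cell lectin Clec4f (0.51) were not called. The B cell receptor component Cd79b differed by 0.66 and no member of the 10 B and plasma cell genes was called by limma. In 5 of the 10 the unadjusted p was under 0.05, but 48.4% of all genes passed that limit even after adjustment.

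Erythroid genes were higher at PS in 3 of 12 (25%, against 2.64% of all genes), lower in none (median 0.61). Under normexp 1 of the 12 was called, Hba-a1 and Eraf losing their calls. Hba-a1, alpha globin, had levels of 8.53, 8.56, 8.69 and 8.57 at PS and 7.18, 6.88, 7.19 and 7.17 at DR1, 2.8-fold higher at PS (SE 0.0683, limma adjusted p 5.09e-11). The heme synthesis enzyme Alas2 rose 2.31-fold and the globin chaperone Eraf 2.33-fold, and the 4 probes of Hbb-b1, beta globin, gave 0.71 to 1.14. The log2 summed signal of the 12 genes was 9.57 to 9.75 at PS and 8.57 to 8.71 at DR1, without overlap. Hba-a1 at SOL, 8.34, was close to PS.

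Acute phase genes, which the liver secretes in inflammation, had 3 of 36 higher and 1 lower (median 0.22). Il1rn, the interleukin 1 receptor antagonist, rose 2.8-fold, the protease inhibitor Serpina3n 2.41-fold (5.77 to 5.90 at PS, 4.43 to 4.68 at DR1) and Lrg1 2.28-fold. Lcn2, lipocalin, was not above background at PS and at least 2.13-fold lower there. Of these 4, Serpina3n alone kept its call under normexp. Saa3 (0.45) and A2m (0.50) were not called. Lect2, a cytokine secreted by hepatocytes, had levels of 3.93, 3.97, 3.98 and 3.97 at PS and 6.57, 6.89, 6.76 and 6.87 at DR1, 7-fold lower at PS (SE 0.0605, limma adjusted p 3.36e-15), and SOL (6.22), DR4 (5.68) and DR6 (5.75) were all higher than PS.

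Few genes that answer to metals and xenobiotics were called. Metallothioneins bind zinc, copper and cadmium. Mt1 levels were 6.16, 6.07, 6.10 and 6.04 at PS and 6.87, 6.62, 7.12 and 7.16 at DR1, a difference of −0.85 that was not called, whereas its other probe gave −1.99 and was called. Mt2 differed by −0.25 with overlapping arrays. Of 30 metallothioneins and zinc or manganese transporters, only the zinc exporter Slc30a1 was called, 2.04-fold lower at PS, with a second probe at −0.65 and the call lost without DR1 array 3 (−0.95). Slc30a10, a manganese exporter, differed by −0.91 and the zinc importer Slc39a4 by 0.68. Hepcidin genes, which limit iron export, differed by −0.75 in Hamp1 and were 2.37-fold lower at PS in Hamp2 (5.88 to 5.94 at PS, 6.97 to 7.45 at DR1), while the iron exporter Slc40a1 (−0.13) and the transferrin receptor Tfrc (−0.15) were not called.

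No member of 34 Cyp2 and Cyp3 cytochromes was called in limma at an adjusted p under 0.05 and 2-fold (median 0.13, range −0.99 to 0.54). Among them were Cyp2e1 (0.16), Cyp3a11 (0.12) and Cyp2b10 (−0.16). An unadjusted p under 0.05 was reached by 13 of the 34, but 48.4% of all genes passed that limit even after adjustment. Of 39 antioxidant and NRF2 target genes, Gpx3, the plasma glutathione peroxidase, was 3.46-fold higher at PS (0.44 to 0.66 at PS, −1.59 to −0.71 at DR1) and the reductase Akr1b8 was 2.24-fold higher. Gpx3 is made in abundance by kidney, and the kidney marker Kap moved with it between PS and DR1; its part in the Gpx3 result was not tested. At DR4 the Gpx3 level was 2.59 and that of Kap −5.98. Nqo1 (−0.61), Hmox1 (−0.18) and Nfe2l2, which encodes NRF2, (0.12) were not called. Of 41 conjugation enzymes, 3 were higher at PS: Ugt1a9 by 2.11-fold, Sult2b1 by 2.3-fold and Ugt2b35, which was not above background at DR1, by at least 4.89-fold. All 3 calls were lost under normexp.

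In the circadian clock list 2 of 20 were higher at PS and 4 lower. Dbp, a clock output factor, was 2.24-fold higher and Per3 2.9-fold higher, and Nfil3, which represses the same sites that Dbp activates, was 3.1-fold lower. Cry1 (2.32-fold), Arntl (2.21-fold), which encodes BMAL1, and Bhlhb2 (2.18-fold) were lower at PS too. The Arntl call, with an adjusted p of 0.0231 in limma, was lost without PS array 2 or DR1 array 3, at differences of −1.11 and −1.05, and under normexp Bhlhb2 alone of the 6 kept its call. The time of day at which livers were taken is not used here.

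In glucose metabolism, glucose-6-phosphatase (G6pc), the last step of glucose release, had levels of 5.57, 5.57, 5.61 and 5.59 at PS and 6.68, 6.81, 6.84 and 7.02 at DR1, 2.38-fold lower at PS (SE 0.0631, limma adjusted p 1.53e-10). The kinase Snf1lk and the aminotransferase Got1 fell 2.02-fold and 2.07-fold, and enolase Eno1 rose 2.31-fold, out of 36 genes whose median was −0.02. The Snf1lk call was lost without PS array 3 (−0.98) or DR1 array 2 (−0.87). Csad, which makes taurine from cysteine, was 3.08-fold higher at PS, its second probe giving 0.84. In the bile acid list, Cyp7b1, Akr1c6 (2.41-fold) and the organic anion transporters Slco1a1 (2.22-fold) and Slco1a4 (2.07-fold) were lower, the last lost without PS array 4 (−0.98) or DR1 array 3 (−0.97), while the rate-limiting Cyp7a1 (−0.28) and Cyp8b1 (0.63) were not called. In the endoplasmic reticulum stress list, Creld2 (2.25-fold) and Armet (2.19-fold) were higher, Nupr1 was 2.18-fold lower, and the median of 37 genes was −0.02. The Armet call was lost without DR1 array 3 (0.89). Retinal reductase Rdh11 was 3.28-fold lower and Aldh1a3, which makes retinoic acid, 2.18-fold higher (0.91 and no call without DR1 array 4), while Cyp26a1, which destroys it, differed by −0.33.

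Several lists had no called member. None of 73 oxidative phosphorylation subunits, 74 ribosomal proteins, 39 complement and coagulation genes, 33 heat shock proteins or 19 endothelial markers was called in limma at an adjusted p under 0.05 and 2-fold, with list medians from −0.07 to 0.09. At an unadjusted p under 0.05 and no fold limit, 35 of the 73, 30 of the 74, 26 of the 39, 22 of the 33 and 9 of the 19 differed. Over all genes, 48.4% had even an adjusted p under 0.05 in limma with no fold limit, so these counts are not read as results about the lists. Of 18 hepatocyte markers, 2 were lower, Apob and G6pc, with a list median of −0.05. Of 16 cholangiocyte markers, Ggt1 was 2.7-fold higher and Tacstd1 and Cftr 2.4-fold and 2.5-fold lower, with Krt19 at −0.87 uncalled, and all 3 calls were lost under normexp.

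**Figure D5:**
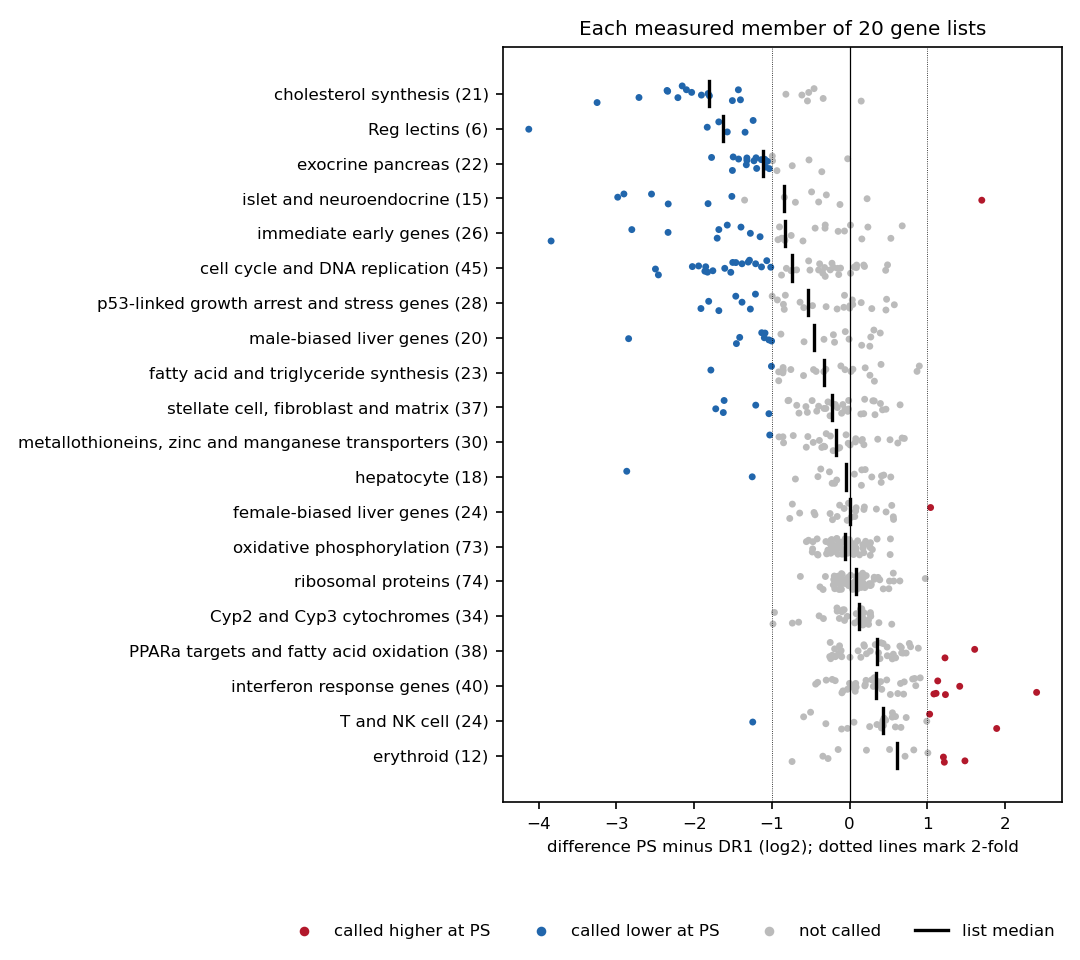
Difference PS minus DR1 (log2, horizontal axis) for each measured member of 20 gene lists (number measured in brackets), with members called higher at PS in red, called lower in blue and the list median as a black bar. Cholesterol synthesis (median −1.80), Reg lectins (−1.63) and exocrine pancreas (−1.11) lie to the left, oxidative phosphorylation and ribosomal proteins cluster around 0, and erythroid genes (0.61) lie to the right.

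Car3 and Apob are 2 large falls in which the probes of the gene did not give the same answer, Nr4a1 had the largest fall among genes measured on all 8 arrays, and Kap the largest fitted rise of all genes. For these, the first 30 of the 60 bases of each probe are shown, 5′ to 3′ and in lower case throughout, with the positions of the whole probe in mouse build mm8 as the files annotate them.
Car3, chr3:14841475-14841534, plus strand: ggctttctgaccaccgagagacaacgtttt
Car3, chr3:14848525-14848584, plus strand: acatgcaaccgcagtgccttttgacatgat
Apob, chr12:8037943-8038002, plus strand: tgatcacaagttcagcttagaaagtctcac
Apob, chr12:8042336-8042395, plus strand: ccagcagttccactccaatctgcaggattt
Apob, chr12:8042396-8042455, plus strand: atttgttggtgagtccacaagattgattga
Nr4a1, chr15:101102674-101102733, plus strand: ctcttccgctctccttccatgtgtacataa
Kap, chr6:133815600-133815659, minus strand: caaagaagaaagaacgaggaagtgatcctg

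Car3, a cytosolic carbonic anhydrase abundant in male liver, had levels of −0.08, −0.09, 0.01 and −0.21 at PS and 3.09, 3.19, 3.07 and 3.11 at DR1 on the probe at chr3:14848525, 9.24-fold lower at PS (SE 0.0835, limma adjusted p 4.36e-14). The dimmer probe 6990 bases upstream gave the opposite sign, 0.99, and was not called. That probe was near background, with means of −3.59 at PS and −4.58 at DR1, and well above it on only 3 PS and 2 DR1 arrays. The fall of Car3 therefore rests on the brighter probe, for which SOL (3.81), DR4 (2.35) and DR6 (1.99) were all above PS. Another member of the family, Car6, was 2.28-fold higher at PS. Apob, the structural protein of very low density lipoprotein, had levels of 2.47, 2.16, 2.75 and 1.92 at PS and 5.09, 4.67, 5.29 and 5.71 at DR1, 7.29-fold lower at PS (SE 0.266, limma adjusted p 2.05e-07). Its neighbouring probe, which ends at the base before, gave −2.81, and the third, 4333 bases upstream of that pair, gave −0.95. The probes of Apob thus shared a direction but not a size.

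Among the other largest rises, Derl3, which helps remove misfolded proteins from the endoplasmic reticulum, had levels of 1.89, 1.93, 1.80 and 1.78 at PS and −1.08, −1.03, −0.89 and −0.81 at DR1, 6.99-fold higher at PS (SE 0.0858, limma adjusted p 3.65e-13), and no other pool exceeded −0.33. Baiap2l2, a membrane-curving actin regulator, rose 4.55-fold, Slc35f3, a solute carrier, 3.52-fold and Vps52, a tethering subunit of the Golgi, 3.99-fold. Ddx25, an RNA helicase of male germ cells (6.35-fold), Lars2, the mitochondrial leucine tRNA ligase (3.99-fold), Cdk5r2, an activator of the kinase Cdk5 (3.94-fold), and Trim55, a muscle ubiquitin ligase (3.75-fold), were also higher, but their DR1 arrays were widely spread. Lars2 levels at DR1 were 5.73, 7.50, 5.74 and 5.47, against 7.65, 8.15, 8.12 and 8.51 at PS. Ddx25 at DR1 was the lowest of the 5 pools, 0.26 against 2.92 at PS and 3.53 to 3.78 elsewhere. Under normexp the calls of Baiap2l2, Vps52 and Cdk5r2 were lost. Among the falls, Mpst, a sulfurtransferase that makes hydrogen sulfide, went from 1.17 at DR1 to −1.42 at PS, 6.01-fold lower (limma adjusted p 4.99e-11).

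The remaining genes with the largest bounds were Vgll4 (at least 3.15-fold), Gpr39 (at least 3.01-fold), Chrdl2 (at least 2.98-fold) and Cdk3 (at least 2.89-fold) higher at PS, and Serpinb12 (at least 6.01-fold), Mlf1ip (at least 4.2-fold) and Adamts20 (at least 3.42-fold) lower. All of these calls were lost under normexp. The Serpinb12 value came mostly from 1 array: its DR1 levels were 2.07, −3.22, −2.81 and −2.87 against −4.89 to −4.24 at PS, and without the first DR1 array the fitted difference shrank from −2.78 to −1.52.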

How the data were processed

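Liver RNA of 9 male Mus spretus per site was pooled, per the labels' protocols, labelled with Cy3 and hybridized to single-colour Agilent mouse arrays. The deposited scanner files give spot intensity as Agilent Feature Extraction 9.5.3.1 wrote it, per the file headers, after its own background handling. The authors' series table holds the same intensity on a linear, uncentred scale, within 0.497% of the scanner files and with column medians of 9.72 to 24.8, and served as an alternative. The match of the mouse probes to Mus spretus transcripts was not tested.

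From these, control spots and outlier-flagged spots were left out, spots of a probe were averaged, and log2(processed signal) minus each array's 75th percentile was taken. Probes called well above background by the scanner software in 3 or more arrays of some site were retained, and the brightest stood for its gene. All 19 arrays were fitted with 1 mean per site in limma 3.58.1 under R 4.3.3 (lmFit and eBayes), p-values were adjusted by the Benjamini-Hochberg method over 16345 genes, and genes were called at an adjusted p under 0.05 and a change of 2-fold. Where no array of the dimmer site measured a gene above background, the fold is a bound, taken against the dimmest detectable probe of each array or the gene's own value where that was higher.

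Named genes were the 12 largest rises and 12 largest falls well above background on all 8 arrays, and the 6 largest bounds in each direction. Up to 8 called members of each list per direction, and key members of each list whether called or not, were named too. Some genes that this rule names are not reported here. The lists and members were chosen with earlier results of these data known. Gene names and mm8 positions are those of the array annotation in the files, and some are old. The DR1 slide was read with an older (mm7) design file, whose gene names differ at 5.84% of gene spots, and was named by the mm8 annotation. The sites share replicate numbers, but these do not mark an animal, and the arrays were not paired. On simulated data with 200 of 16345 genes changed, 195 (97.5%) were recovered and 2 others were called. Precision is limited by the number of arrays, and p-values cover only technical spread. Alternatives covered scaling, background correction, filters, probe choice and the arrays left out, and 1, the adjustment for probe base composition, was added after the data were seen.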

Additional observations from a re-analysis of the deposited data

Results flagged for a closer look

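For every gene named, each group of 4 arrays was examined for an array that stood apart from the other 3 by Dixon's criterion, and 36 of 418 groups had one. Chance alone gives about 1 group in 20. PS array 4 accounted for 12 of the 36 and DR1 array 2 for 11. The values below are levels.

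PS array 4 was below the other PS arrays in Cyp51 (1.57, others 1.83 to 1.85), Srebf1 (2.69), Cidec (6.03), Sesn1 (2.74), Mdm2 (1.74), Cyp7b1 (5.80), Eraf (−1.73) and Slc30a1 (2.20). It was above them in Sqle (1.33, others 1.11 to 1.15), Armet (4.67), Cyp2e1 (7.77) and Cyp3a11 (8.29). The gaps were small beside the site differences of the called cholesterol enzymes.

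DR1 array 2 was below the other DR1 arrays in Junb (5.98, others 6.88 to 7.06), Jun (−0.70), Mup5 (6.52), Hao3 (0.63), Hba-a1 (6.88), Ddx25 (−0.62, others 0.47 to 0.68), Chrdl2 (−5.44), Adamts20 (−3.56, others −1.94 to −1.65) and the Y-linked Eif2s3y (1.98). It was above them in Col1a1 (−0.13) and in Lars2 (7.50, others 5.47 to 5.74), the mitochondrial leucine tRNA ligase, where it lay near the lowest PS array.

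DR1 array 3 was low in Areg (−3.1) and Reg2 (6.4) and high in Slc30a10 (0.52) and Slco1a4 (4.71). DR1 array 4 was low in Reg3d (−2.74, others −1.58 to −1.5) and Pap (4.09) and high in Sst (−3.45). DR1 array 1 was low in Cd3g (−3.97) and high in Ela2a (2.35) and in Serpinb12 (2.07, others −3.22 to −2.81). Moxd1 was high on PS array 1 (0.23), and Mlf1ip was low on PS array 2 (−6.21) and Clec4f on PS array 3 (2.30).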

How the results depend on the processing

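Of the 151 called genes named, all kept their call with the series table values, with no filter on dim probes, with outlier spots kept and with an intensity trend. The series table holds the same intensities within 0.497%, so little could change there. An adjusted p alone only drops the fold limit and so cannot end a call. Deviations of same-numbered arrays from their site means correlated at −0.01 to 0.11, against −0.10 to 0.05 for other pairs, and 6 of 8 arrays matched their own number best, a hint from the data and not from the design. With a replicate block 437 genes were higher and 610 lower and none of the 151 lost its call. Median scaling ended 9 calls (Fasn, Vil1, Tff3, Nudt7, Omd, Slc30a1, Got1, Snf1lk, Slco1a4) and quantile scaling 7 of these. The mean of all probes ended 5 (Fdps, Vil1, Nudt7, Cd8a, Slc30a1), the adjustment for probe base composition 11 (Nr0b2, Cidec, Egfr, Keg1, Nudt7, Omd, Cd68, Lrg1, Slc30a1, Dbp, Snf1lk), and the fit on the 8 arrays alone ended that of Serpinb12. Normexp ended 75, of which Sst (0.12), Ppy (0.11), Bub1 (0.041), Omd (0.025) and Gzma (0.039) turned above 0, and with quantile scaling it ended 73. Among the measured genes it took were Hba-a1, Eno1, Col1a1, Lum, Mki67, Sftpc, Dbp, Arntl, Creld2 and Armet.

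Counts that moved by over 1.5 times were as follows. Under normexp 58 genes were higher and 189 lower, with 1 cell cycle, 2 islet, 2 interferon and 1 erythroid gene. Under normexp with quantile scaling 85 were higher and 144 lower, with 1 cell cycle, 2 islet, 4 male-biased and 2 interferon genes. With only genes above background on all 8 arrays 252 were higher and 373 lower, with 9 cell cycle and 2 islet genes, fewer genes being tested. The mean of all probes gave 5 erythroid genes, and the base composition adjustment 4 male-biased ones. The adjusted p alone gave 3779 higher and 4128 lower, with 18 immediate early, 16 p53-linked, 29 cell cycle, 24 interferon and 5 erythroid genes. Apart from the cases where construction shows it, the cause was not tested.

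Leaving out 1 array at a time gave 418 to 482 higher and 591 to 668 lower, with 14 cholesterol, 9 to 10 immediate early, 7 to 8 p53-linked, 17 to 19 cell cycle, 15 to 17 exocrine, 6 islet, 6 Reg, 7 to 8 male-biased, 5 to 6 interferon and 3 erythroid genes. It ended the call of 15 named genes.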

Other observations

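Some genes outside the lists were gathered after their values were seen, and they are described without a test of any set. Beyond Kap and Slc34a1, some other renal transcripts were detected at PS and not well above background on any DR1 array. Since they were picked for this, and entered the test through PS, their number says nothing about renal genes in general. Dnase1, a secreted nuclease, had levels of −2.56, −2.93, −3.0 and −3.41 at PS and −4.63, −5.94, −5.96 and −6.01 at DR1, and was at least 2.6-fold higher at PS (limma adjusted p 1.63e-06). Cdh16, the kidney cadherin, was at least 2.66-fold higher and Tmem27, a collectrin of the proximal tubule, at least 2.7-fold. The phosphate transporter Slc34a3 and the endocytic receptor Lrp2 were at least 1.32-fold and 1.42-fold higher. The organic anion transporters Slc22a6 (0.12) and Slc22a8 (0.65), the urate transporter Slc22a12 (0.32) and the collecting duct water channel Aqp2 (0.31) were not called. Miox, which breaks down inositol, went the other way, with levels of 0.22 to 0.39 at PS and 1.62 to 2.06 at DR1, 2.96-fold lower at PS (limma adjusted p 2.11e-10).

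Some immunoglobulin transcripts were higher at PS. Of 28 genes on the array named for immunoglobulin heavy or light chains, 20 were tested, 7 were higher and none was lower, against 2.64% and 3.72% of all genes. Of the 7, 4 were bounds, having passed the filter without being above background on any DR1 array. The rest were not called, and Igh-VJ558 (−0.28), Igk-V19-14 (−0.54) and Igk-V21-12 (−0.15) lay below 0. The heavy chain probe Igh had levels of −1.5, −1.45, −1.65 and −1.43 at PS and −2.68, −2.89, −2.66 and −2.35 at DR1, 2.21-fold higher at PS (limma adjusted p 4.51e-06). Its arrays did not overlap, and the other pools were at −2.50 (SOL), −3.58 (DR4) and −3.80 (DR6). The variable segment Ighv14-4 was at least 1.57-fold higher. Between the outermost of the heavy chain names, chr12:113706582-116206059 in mm8, a region also picked after the values were seen, 20 of 40 tested genes were higher, 7 of them as bounds, and none was lower. Variable segments are near-identical copies, so a probe may read several of them and the genes are uncertain. The constant chain genes Ighg (0.48) and Igh-6 (0.44) and the light chain gene Igk-V1 (0.76) were not called. Tnfrsf13c, the BAFF receptor of B cells, was at least 1.1-fold higher, and the plasma cell genes Xbp1 (0.27), Sdc1 (−0.18) and Pou2af1 (0.23) were not called.

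Actb, beta actin, often used as a reference gene, was 2.02-fold lower at PS, with levels of 3.51, 3.57, 3.56 and 3.70 at PS and 4.58, 5.01, 4.28 and 4.51 at DR1 (limma adjusted p 4.15e-06).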
